A study of Caenorhabditis elegans with 4 samples.

Results

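LIN-35, the worm homologue of the retinoblastoma tumour suppressor, was mapped by ChIP-seq, and its binding regions on chromosome II of Caenorhabditis elegans are described here. The members are the peaks of the combined list placed on chromosome II, 1001 of 5374 peaks or 18.6%. The lists of the single precipitated samples placed 721 of 3804 peaks there in replicate 1 and 110 of 558 in replicate 2. All samples came from strain YL468, genotype unc-119(ed3) III with the integrated transgene vrIs93. The transgene drives LIN-35 fused to GFP and FLAG from the mex-5 promoter, which is active in the germline, and carries unc-119(+). Animals were young adult hermaphrodites kept at 20 degrees Celsius, fixed with 2% formaldehyde and precipitated as whole worms with an antibody against GFP. There were 2 precipitated samples and 2 inputs, and no processed file of an input was used here. The labels report no outcrossing of the strain and name no mutation of native lin-35, so untagged LIN-35, which the antibody does not detect, may be present too. No label says whether the replicates were separate cultures.

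Proteins of the retinoblastoma family have no DNA-binding domain of the usual kind and reach chromatin through partners. In the worm, LIN-35 works with the E2F and DP proteins EFL-1 and DPL-1 and with the MuvB core proteins in the DREAM complex, which represses transcription at promoters. Loss of LIN-35 is known for the mis-expression of germline genes in somatic cells, for defects of the cell cycle and for its synthetic effects on vulval development. Worm autosomes have a gene-dense centre, where recombination is rare, between arms that are richer in repeats and recombine more often.

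The authors' peak caller gave every peak its borders and a q-value, in coordinates of WormBase build WS220. A low q means a strong call. Read depth is unknown, so q was used only to order peaks within 1 list, and a region missing from a list was not detected there. The length of chromosome II was taken as the highest peak end in any list, 15238560 bp. Peaks covered 181 kb or 1.19% of it in the combined list, 135 kb in replicate 1 and 36.0 kb in replicate 2. Combined peaks lay at 65.7 per Mb, against 51.5 per Mb over the other 5 chromosomes and 54.2 per Mb over the other autosomes. Single chromosomes other than II ran from 38.6 per Mb on I to 75.3 per Mb on III, so chromosome II was not the densest. Intervals below are Wilson 95% intervals and cover counting error only.

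The peaks were unevenly spread along the chromosome, with a sparse left end and the 2 richest bins of 1 Mb between 10 and 12 Mb. The 4 bins of 1 Mb at the left end held 44, 34, 40 and 35 combined peaks, in order from the tip. The next bin held 73, and none of the 11 full bins from 4 to 15 Mb held fewer than 58 or more than 104. A uniform spread would have put 65.7 peaks in each full bin. The 4 left bins together carried 15.3% (13.2 to 17.6) of the peaks on 26.2% of the length.

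The left deficit was seen in both replicates. Replicate 1 placed 24, 26, 22 and 32 peaks in the 4 left bins and between 38 and 74 in the 11 others. Replicate 2 placed 4, 3, 2 and 2 peaks there and between 4 and 20 in the others. The 2 groups of bins did not overlap in the combined list and in replicate 1, and they met at 4 peaks in replicate 2. The groups were set after the combined counts were seen, so their separation in the combined list follows from that choice. The replicate lists may not be independent of it either. Combined peaks were overlapped by 585 of 721 replicate 1 peaks and by 109 of 110 replicate 2 peaks. The mean of the 11 bins was 1.98 times that of the 4 left bins in the combined list, 2.11 times in replicate 1 and 3.21 times in replicate 2.

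Each of the 16 bins was tested against its share of length with a two-sided exact binomial test, adjusted over the bins. In the combined list 4 bins fell below and 2 rose above. Over all 6 chromosomes, chromosome II included, 11.7% of 103 bins tested in the same way were lower and 4.85% were higher. Chromosome III had 4 lower and 1 higher of 14 bins, and V had 3 lower and 2 higher of 21. Chromosome IV had 1 lower of 18, and I and X had no called bin. The 4 lower bins of chromosome II were those at the left end, with adjusted p between 0.000105 and 0.0155. The higher ones were 10 to 11 Mb with 87 peaks (adjusted p = 0.0233, exact binomial test) and 11 to 12 Mb with 104 peaks (adjusted p = 8.29e-05, exact binomial test). The next richest bin, 8 to 9 Mb with 81 peaks, was not called (adjusted p = 0.126, exact binomial test). Adjusted over the 103 bins of all chromosomes, the bin from 10 to 11 Mb was no longer called (adjusted p = 0.0562, exact binomial test). With peaks within 2000 bp merged, 3 of the 6 calls were left, among them 11 to 12 Mb.

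In replicate 1 the same 4 bins were lower and 3 were higher, the third being 8 to 9 Mb, where the background over all chromosomes was 6.8% lower and 4.85% higher. In replicate 2 the bin from 11 to 12 Mb alone was called, with 20 peaks where 7.22 would follow from length (adjusted p = 0.000486, exact binomial test). That was 1 of 103 bins, or 0.971%, of the whole replicate 2 list. No left bin of replicate 2 was called, and none reached an unadjusted p of 0.05, the 2 lowest being 0.0503. With 110 peaks in all, a full bin of that list is expected to hold about 7, so the list has little power to show a deficit.

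**Figure D1:**
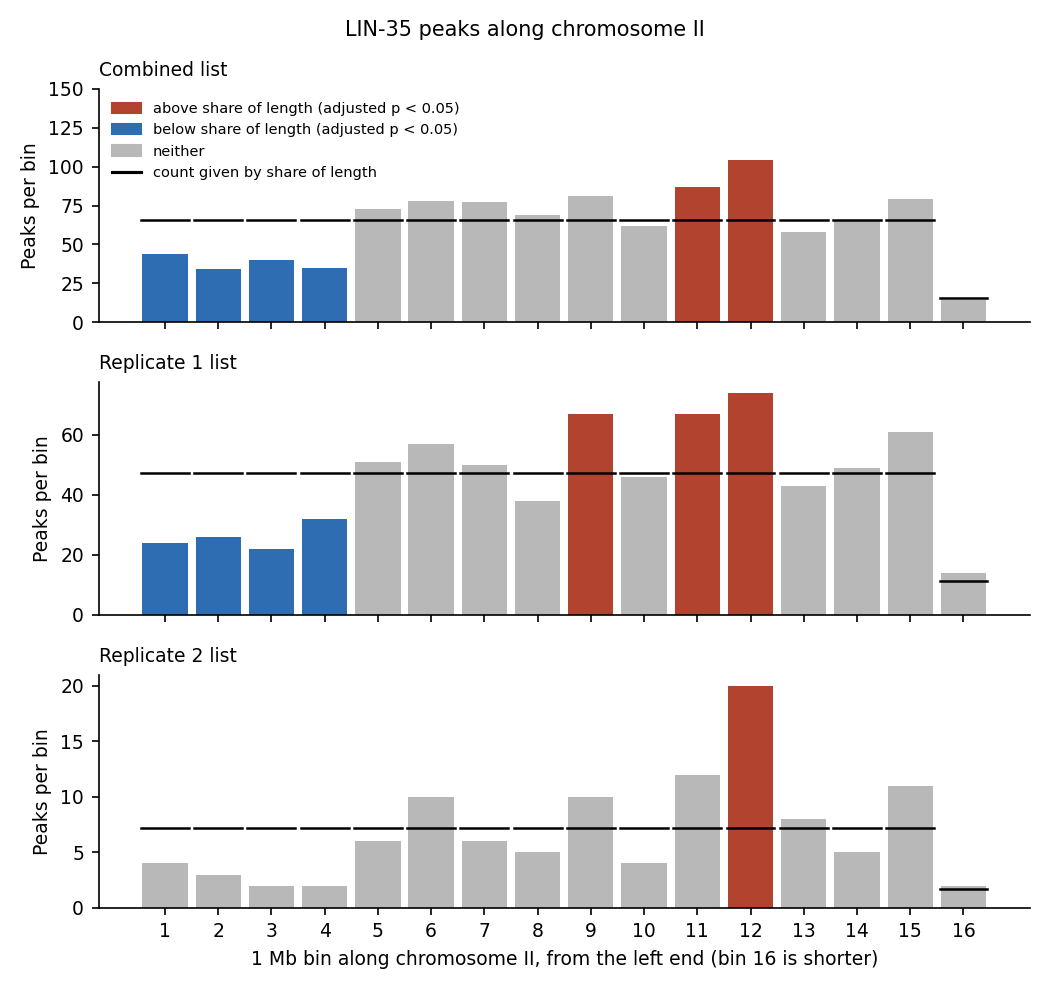
Number of LIN-35 peaks in each 1 Mb bin of chromosome II, by list, ordered from the left end of the chromosome. Black lines give the count that follows from the bin's share of length, and colours give the exact binomial call adjusted over 16 bins. The 4 left bins are low in each list, and the twelfth bin is the highest in each, with 104, 74 and 20 peaks.

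The placing of the bins mattered within the richer region. With bins shifted by 500 kb, 10.5 to 11.5 Mb held 95 peaks (adjusted p = 0.00226, exact binomial test) and 4.5 to 5.5 Mb held 92 (adjusted p = 0.00548, exact binomial test). No other shifted bin was higher, while 3 at the left were lower. From 10 to 10.5 Mb there were 32 peaks, close to the 32.8 that follow from length. Counts changed sharply at 12 Mb. In bins of 500 kb, the one from 11.5 to 12 Mb held 64 combined peaks and the next, from 12 to 12.5 Mb, held 15. Replicate 1 placed 42 and 15 peaks in these bins, and replicate 2 placed 14 and 3. The bin from 1.5 to 2 Mb was the emptiest of full size in the combined list with 8 peaks, and it held 8 peaks of replicate 1 and 0 of replicate 2. Replicate 1 had fewer from 0.5 to 1 Mb, with 5 peaks. Replicate 2 also had 0 from 2 to 2.5 Mb and from 3 to 3.5 Mb. Bin counts moved together between the lists over the 15 full bins, with Spearman's rho of 0.91 between the replicates and Pearson's r of 0.87. Each point is 1 stretch of chromosome read in different libraries, so the values are a description.

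Left arm, centre and right arm were then compared, taking the centre as 25% to 75% of the length, 3809641 to 11428920. The left arm held 139 combined peaks at 36.5 per Mb, the centre 576 at 75.6 per Mb and the right arm 286 at 75.1 per Mb. The right arm was thus within 1 peak per Mb of the centre in the combined list. These borders were set by length alone and not by recombination or repeats, which were not examined. The right arm so defined takes in the bin from 11.5 to 12 Mb, which held 64 of its 286 peaks. In replicate 1 the left arm, centre and right arm held 24.9, 53.9 and 56.4 peaks per Mb, and in replicate 2 they held 2.62, 7.74 and 10.8. The left arm was the sparsest part in each list. On the other autosomes the arms held 45.8 and 48.7 peaks per Mb and the centre 61.1. Of the peaks in both arms, the right arm held 67.3% (62.7 to 71.6) in the combined list, 69.4% (64.0 to 74.2) in replicate 1 and 80.4% (67.5 to 89.0) in replicate 2. On the other autosomes, pooled, these shares were 51.6%, 49.8% and 44.4%. Arm shares of each single autosome were not taken, and opposite imbalances could cancel in the pool. Whether another autosome has uneven arms is therefore not shown.

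The difference from the pooled other autosomes passed a two-sided Fisher's exact test in each list. In the combined list the odds ratio was 1.93 (p = 1.63e-08, Fisher's exact test, adjusted over 6 tests). In replicate 1 it was 2.28 and in replicate 2 it was 5.14 (p = 1.23e-09 and 2.12e-05, Fisher's exact test, each adjusted over 4 tests). Among the weaker 50% of the whole combined list the difference was not past the threshold, at 60.1% against 56.6% (p = 0.411, Fisher's exact test). The central share showed no such difference. It was 57.5% (54.5 to 60.6) on chromosome II and 56.4% (54.8 to 58.0) on the other autosomes (adjusted p = 0.621, Fisher's exact test). Peaks close together are not independent of each other, so these p-values describe the lists and not the spread between worm populations.

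The imbalance of the arms was largest among the strong peaks of the combined list. Among the 20% of chromosome II peaks with the lowest q, 18 lay in the left arm and 70 in the right, a right share of 79.5% (70.0 to 86.7). It then came to 73.2%, 67.7% and 62.2% in the next 3 groups of 20%. In the last 20% the arms were nearly even, with 40 and 45 peaks and a right share of 52.9% (42.4 to 63.2). On the other autosomes the order was the opposite, from 45.8% (40.4 to 51.4) in the first 20% to 59.8% (54.6 to 64.9) in the last. Replicate 1 gave 76.1%, 80.7%, 57.4%, 73.5% and 56.6% from its first to its last 20%, so its shares did not fall in order. In replicate 2 the right share was 81.8% in the better 50% and 79.3% in the weaker 50%. These ranks were examined after the arms had been compared, and the trend was not tested.

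**Figure D2:**
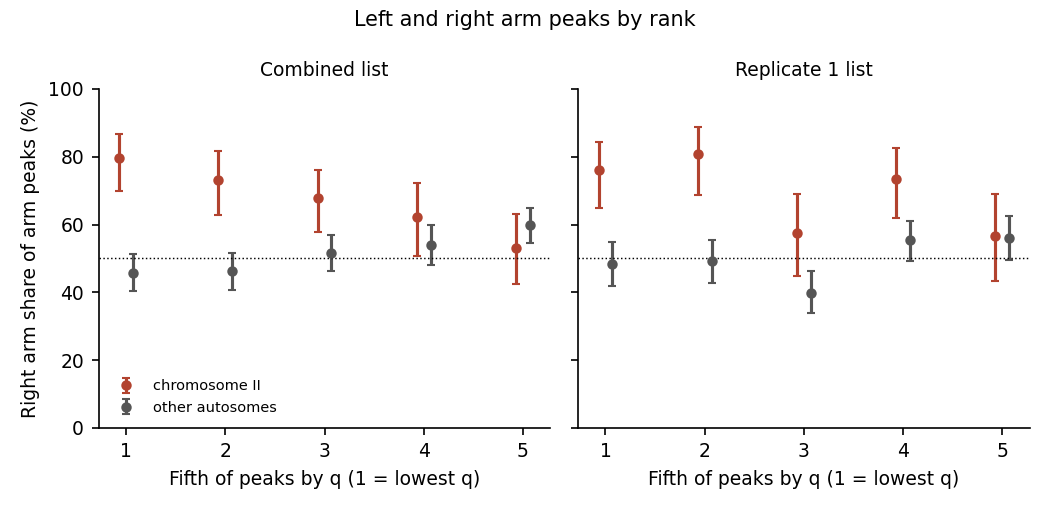
Share of arm peaks that lie in the right arm, in % with Wilson 95% intervals, for successive 20% of peaks ordered by q, on chromosome II (red) and the other autosomes (grey). The combined list falls from 79.5% to 52.9% on chromosome II, and the intervals of both groups overlap in the fourth and the last 20%.

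The arms also differed in what kind of peak they held. The median width was 98 bp in the left arm, 148 bp in the centre and 150 bp in the right arm. Peaks with q under 1e-05 made up 12.9% of left arm peaks, 19.6% of central peaks and 24.8% of right arm peaks. Over the chromosome they were 202 of 1001 or 20.2% (17.8 to 22.8), where the whole combined list had 18.3%. In replicate 1 the shares of such peaks were 12.6%, 14.4% and 20.5% in the same order. Replicate 2 did not share the order, with 3 of 10, 12 of 59 and 7 of 41 peaks.

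The strongest peak of chromosome II, and of the whole combined list, lay at 8418688 to 8421614 and had unequal support. Its replicate 1 counterpart was nearly identical in extent, at 8418685 to 8421614 with q = 3.58e-112. Replicate 2 held only short peaks inside it, one of 269 bp at 8419051 to 8419319 with q = 0.00369 and one at 8420925 to 8421113 with q = 0.00497. The better of these ranked 84 among the 110 chromosome II peaks of replicate 2. It spanned 2927 bp. The next widest combined peaks, at 5661062 to 5662484 and 1322570 to 1323897, spanned 1423 and 1328 bp.

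The next regions were placed alike by both samples. The peak at 10563278 to 10563826 (q = 1.37e-70) ranked 2 on chromosome II in replicate 1 and 1 in replicate 2. The peak at 14251175 to 14251996 (q = 2.67e-45) ranked 3 and 2, and its start and end were the same to the base in the combined and the replicate 1 lists. The region at 5661062 to 5662484 (q = 2.97e-43) ranked 4 in each list. It is also the single peak of chromosome II whose internal structure was changed by the liftover that the file comments record, in each of the lists. The peaks at 5844502 to 5845249 (q = 1.04e-32) and 5543426 to 5544090 (q = 1.47e-29) completed a group of 3 within the same 1 Mb bin. They ranked 5 and 7 in replicate 1 and 6 and 8 in replicate 2.

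The other 4 of the 10 best combined peaks were more uneven. At 1320476 to 1321140 (q = 5.01e-28), the single left arm peak among them, replicate 2 ranked the region 3 and replicate 1 ranked it 13. At 14059715 to 14060241 (q = 1.71e-26) the ranks were 8 in replicate 1 and 33 in replicate 2. At 4851646 to 4852007 (q = 5.67e-26) they were 6 and 61. At 15010280 to 15010736 (q = 2.90e-25) they were 10 and 16. All 10 peaks overlapped peaks of both replicates, 6 lay in the centre and 3 in the right arm. Among the 100 best peaks of the chromosome, 7 lay in the left arm, 56 in the centre and 37 in the right arm.

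The outermost combined peak at the left tip lay at 133 to 500 (q = 0.000206) and was found in both replicates, at 133 to 497 and at 135 to 582. It ranked low in each, 629 on the chromosome in replicate 1 and 87 in replicate 2, and the next combined peak was 23937 bp away. The last combined peak lay at 15232691 to 15232936 (q = 7.35e-09) with the same ends in replicate 1, while the nearest replicate 2 peak was 206698 bp away.

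Support was counted as an overlap of at least 1 bp with a peak of a single replicate. Of the 1001 combined peaks, 579 or 57.8% (54.8 to 60.9) overlapped replicate 1, where the whole list had 56.9%. Replicate 2 peaks were overlapped by 108 or 10.8% (9.02 to 12.9), where the whole list had 10.1%. Both replicates were overlapped by 90 peaks or 8.99% (7.37 to 10.9), against 8.65% of the whole list, and neither by 404 or 40.4% (37.4 to 43.4), against 41.7%. Support in both did not differ past the threshold between chromosome II and the other chromosomes (8.58%, adjusted p = 0.663, Fisher's exact test), nor did support in neither (42.0%, adjusted p = 0.534, Fisher's exact test). Among peaks of at least 100 bp the share in neither was lower on chromosome II, at 25.3% against 29.6% (unadjusted p = 0.0378, Fisher's exact test). The members were therefore supported about as often as the whole list. Replicate 1 alone supported 489 peaks and replicate 2 alone supported 18.

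Within chromosome II the support followed rank. Of the 10% of peaks with the lowest q, all overlapped replicate 1 and 70 or 69.3% (59.7 to 77.5) overlapped replicate 2. In the second 10% these shares were 96% and 20%, and in the third 83% and 11%. In the last 10%, 19% (12.5 to 27.8) overlapped replicate 1 and 0 of 100 overlapped replicate 2. No peak ranked below 501 on the chromosome was found in replicate 2, against 108 of the first 501. The 20 best peaks were all found in both replicates, and 44 of the 50 best were. The combined list may rest on the same reads as the replicate lists, so this agreement may not be independent support. Wide peaks are also more easily overlapped by 1 bp, and width fell with rank.

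**Figure D3:**
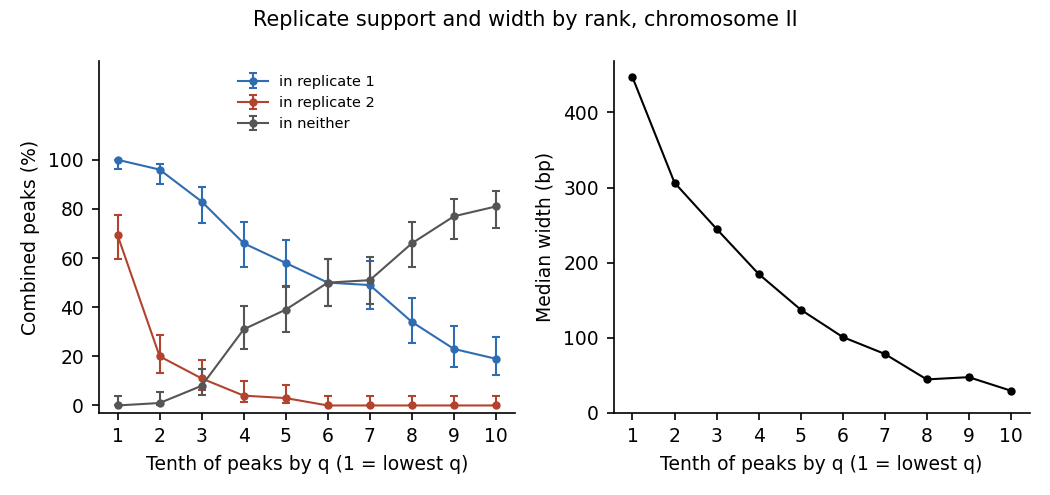
Left, share of combined chromosome II peaks that overlap replicate 1, replicate 2 or neither, in % with Wilson 95% intervals, for successive 10% of the list ordered by q. Right, median peak width in bp for the same groups. Support and width fall along the list, and the median width is 447 bp in the first group and 29.5 bp in the last.

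Support was also counted in the arms and the centre. In the left arm 5.04% (2.46 to 10.0) of peaks were in both replicates, in the centre 8.33% (6.34 to 10.9) and in the right arm 12.2% (8.93 to 16.5). Peaks in neither replicate were 67 of 139, 237 of 576 and 100 of 286 in the same order. The intervals for both replicates overlap between all 3 parts, and no test was made. On the pooled other autosomes the shares in both were 10.5%, 9.84% and 7.20%, and those in neither 38.0%, 41.3% and 42.9%. Peaks under 100 bp made up 50.4%, 38.0% and 37.4% of these parts of chromosome II, and narrow peaks were less often supported. By bin, the share in both replicates was 15.4% of 104 peaks from 11 to 12 Mb. It was 2.50% of 40 peaks from 2 to 3 Mb and 5.71% of 35 from 3 to 4 Mb, but also 2.90% of 69 peaks in the central bin from 7 to 8 Mb.

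Supported peaks lay close to their counterparts. Combined peaks and their replicate 1 counterparts had midpoints a median of 14.5 bp apart, and 52 of 579 had the same start and end. Against replicate 2 the median distance was 34.0 bp over 108 peaks, and 77 of the replicate 2 peaks lay wholly inside the combined peak. Between the replicates, 89 of 110 replicate 2 peaks or 80.9% (72.6 to 87.2) overlapped replicate 1, where the whole list had 82.8%, at a median distance of 46.0 bp. Conversely, replicate 2 overlapped 88 of 721 replicate 1 peaks (12.2%), where the whole list also had 12.2%. Over the 89 pairs the ranks were loosely related, with Spearman's rho of 0.34 and Pearson's r of 0.30, given as a description.

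Most peaks with no counterpart had a high q, with a median of 0.00465 among combined peaks in neither replicate. The best of them lay at 11651023 to 11651477 (q = 3.40e-06) and ranked 181 on the chromosome, with the nearest replicate 1 peak 2340 bp away. It was followed by 11259788 to 11260084 (rank 238) and 3931921 to 3932120 (rank 243). In the other direction, 136 of 721 replicate 1 peaks were absent from the combined list, the best of them at rank 202 among chromosome II peaks of replicate 1, at 223935 to 224104. The next were at 5946938 to 5947137 (rank 227) and 4117522 to 4117648 (rank 248). A single replicate 2 peak was absent, at 7651123 to 7651457 with q = 0.00793.

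Combined peaks of chromosome II were narrow. Their median width was 139 bp, with quartiles at 52 and 246 bp, and 396 or 39.6% (36.6 to 42.6) were under 100 bp, where the whole list had 35.9%. The median was 163 bp in replicate 1 and 283 bp in replicate 2, whose narrowest peak on the chromosome spanned 175 bp. Among the other chromosomes the combined medians ran from 114 bp on X to 159 bp on III, apart from chromosome I, where it was 240 bp. Peaks in both replicates had a median width of 439 bp and none was under 100 bp. Of those in neither, 62.1% were under 100 bp and the median was 68 bp. Width and q rank were tied within the list, with Spearman's rho of -0.83 and Pearson's r of -0.68 over 1001 peaks, as a description.

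One width stood out. Exactly 200 bp was the commonest width in each list, with 38 combined, 38 replicate 1 and 16 replicate 2 peaks on chromosome II. No other single width held more than 13, 9 or 3 peaks in these lists. The 10 widths next below 200 bp together held 25 combined peaks and the 10 next above held 15. The same width was the commonest over the other chromosomes, with 143 of 4373 peaks or 3.27%, against 3.80% on chromosome II. In replicate 1 the shares were 5.61% and 5.27%. In replicate 2 they were further apart, with 5.58% (3.81 to 8.11) on the other chromosomes and 14.5% (9.16 to 22.3) on chromosome II, a difference that was not tested. None of the 38 combined peaks was found in both replicates, where the whole list had 2 of 181. Replicate 1 was overlapped by 25 of the 38, and 12 or 31.6% were in neither replicate, against 40.4% of all chromosome II peaks. The q of the 38 lay between 3.75e-05 and 0.00453. What sets this width was not tested.

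**Figure D4:**
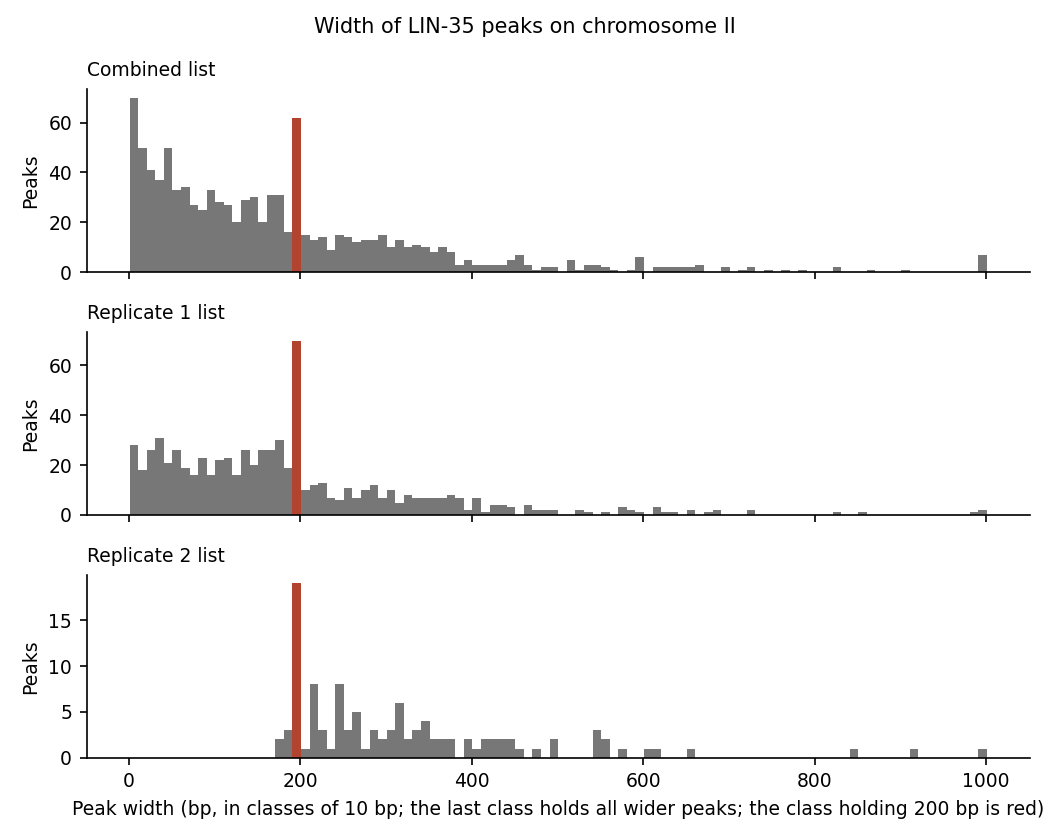
Number of chromosome II peaks by width, in classes of 10 bp, for each list. The last class holds all wider peaks, and the class from 191 to 200 bp, which contains the 38, 38 and 16 peaks of exactly 200 bp, is in red.

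Neighbouring peaks lay at very different distances. The gap between neighbours had a median of 6638.5 bp against a mean of 15052 bp, with quartiles at 1736 and 20658 bp. Gaps of at most 2000 bp made up 278 of 1000 or 27.8% (25.1 to 30.7) on chromosome II and 23.8% (22.6 to 25.1) on the other chromosomes. The other autosomes together had 25.7%, and single chromosomes other than II ran from 14.6% on X to 30.8% on III. Close spacing was thus not particular to chromosome II. No gap on chromosome II was under 206 bp. The shortest gap of the other chromosomes ran from 200 bp on I to 209 bp on X, so this floor was not particular to chromosome II. In the left arm the median gap was 11.7 kb, in the centre 5.71 kb and in the right arm 5.17 kb. Replicate 1 kept this order with 23.5, 10.6 and 8.98 kb.

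**Figure D5:**
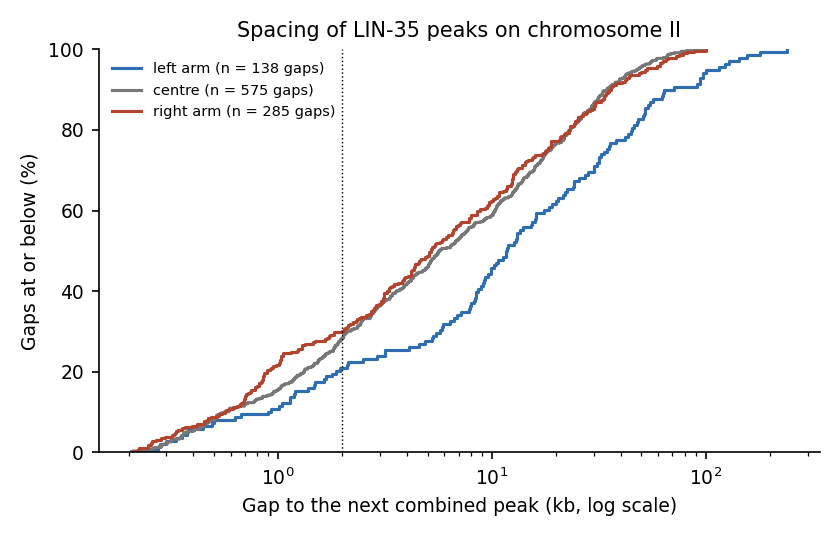
Cumulative share of gaps between neighbouring combined peaks of chromosome II, in %, against gap length in kb on a log scale, for the left arm, the centre and the right arm. The dotted line marks 2 kb. The median is 11.7 kb in the left arm, 5.71 kb in the centre and 5.17 kb in the right arm, and the lower quartiles are 3400.5, 1775.5 and 1220 bp.

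The 6 longest gaps all lay in the left arm. The longest ran from 3567903 to 3808165 and was 240263 bp, the second from 3088125 to 3267967 with 179843 bp and the third from 1663264 to 1819917 with 156654 bp. Replicate 1 had 2 peaks within each of these 3 gaps and replicate 2 had 0.

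Dense stretches were defined as at least 3 combined peaks with no gap over 2000 bp. Chromosome II had 57, holding 215 peaks or 21.5% (19.1 to 24.1), where the whole list had 19.7%. On the other chromosomes the share ran from 10.5% on X to 26.6% on III, which had 69 stretches. Of the chromosome II stretches, 34 had 3 peaks, 15 had 4, and 8 had 5 or more. They spanned a median of 2978 bp and together 1.22% of the chromosome. The left arm had 5, the centre 36 and the right arm 16. These held 12.9% (8.35 to 19.5), 23.3% (20.0 to 26.9) and 22.0% (17.6 to 27.2) of the peaks of each part. At least 1 replicate 1 peak lay in 55 of them and at least 1 replicate 2 peak in 21.

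The stretch with most peaks lay at 10541921 to 10552384, with 11 peaks in 10464 bp, of which 34.3% was covered. Its best peak, at 10541921 to 10542330, ranked 45 on the chromosome and was the single one found in both replicates. A further 7 peaks were found in replicate 1 alone, and the narrowest spanned 5 bp. No stretch of another chromosome held more than 9 peaks in the combined list. In replicate 1 alone the largest stretch of chromosome II held 5 peaks, against 7 on chromosome III and 6 on V, and with gaps of at most 1000 bp the largest combined stretch of chromosome II held 6. The stretch of 11 lies within the 200 kb window richest in combined peaks, 10380001 to 10580000 with 31 peaks, which also holds the second best peak of the chromosome.

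The second stretch, at 11971560 to 11980355, had 9 peaks in 8796 bp, some of them among the best of the chromosome. Peaks at 11973950 to 11974855, 11976972 to 11978101 and 11979720 to 11980355 ranked 18, 19 and 31. The other 6 ranked between 220 and 689. Replicate 2 peaks were overlapped by 3 of the 9, and 4 were in neither replicate. Another stretch of 5 peaks, at 11964768 to 11968464, ended 3095 bp to the left, so that 14 peaks lay in 15588 bp at 11964768 to 11980355. The 200 kb window richest in replicate 2 peaks, 11780001 to 11980000 with 9 peaks, took in most of this group. In replicate 1 the richest window was elsewhere, at 14220001 to 14420000 with 27 peaks, so the richest window differed between the 3 lists. This group ends just before the drop in counts at 12 Mb.

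The 3 stretches of 6 peaks were weaker. That at 6247279 to 6253016 had a best peak of rank 147 and 4 peaks in replicate 1. That at 12736624 to 12739487 had a best rank of 251 and 3 peaks in replicate 1. That at 6888324 to 6893171 had a best rank of 329, and 5 of its 6 peaks were in neither replicate. Replicate 2 held no peak in any of these 3. The sixth stretch, at 1320476 to 1324335 in the left arm, was the reverse, with 5 peaks, 62.4% of its 3860 bp covered, and ranks of 7 and 17 for its main peaks. Replicate 2 called 3 peaks in it, where it called 10 in the whole left arm.

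Peaks were also grouped by whether they had close neighbours. Of 546 combined peaks with no neighbour within 2000 bp, 6.59% (4.80 to 8.99) were in both replicates. The share was 12.5% (8.90 to 17.3) among 240 peaks in pairs and 11.2% (7.62 to 16.1) among the 215 in stretches. Those in neither replicate made up 43.0%, 33.8% and 40.9%. The 3 classes also differed in strength and width. Their median q was 0.00220, 0.00101 and 0.000996, and their median width 113.5, 152.5 and 179 bp, in the same order. Support fell with rank and width in this list, and the classes were not matched for either. Of the 100 best peaks, 53 had another peak within 2000 bp and 47 had none. Peaks with none made up 54.5% of all combined peaks on the chromosome. This difference was not tested, so close neighbours are not shown to be a property of the best peaks. Of the 901 weaker peaks, 63 or 6.99% (5.50 to 8.85) lay within 2000 bp of one of the 100 best, and 25 of these 63 were in neither replicate. The sequence within 2000 bp of the 100 best took up 2.82% of the length. That share is no baseline for the best peaks, because 27.8% of all gaps on the chromosome were at most 2000 bp. The same count was not made around other peaks.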

How the data were processed

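ChIP-seq peak lists of LIN-35::GFP were used as deposited: 1 for each of 2 precipitated samples and 1 combined list. Per the file headers, the authors called peaks with PeakSeq on WormBase build WS220, and comment lines record a liftover. The q-values of the peaks are the authors' own, as deposited, and lie below 0.01. For the aligner, the version of PeakSeq, its control sample and the making of the combined list, nothing is given in the sources used here. No genome or annotation of that build was used, so sequences, genes and exons are not analysed here.

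Analyses used Python 3.11.15, SciPy 1.17.1 and pandas 2.3.3. Bins, arms and centre were assigned by peak midpoint. Exact binomial and Fisher's exact tests were two-sided, with Benjamini-Hochberg adjustment and a threshold of 0.05. Overlap counts equalled those of bedtools 2.31.1, and the procedures were tested on simulated data. Depth is unknown. The members and definitions were chosen with earlier results of these data known. Named regions followed a rule: the 10 best peaks, the 3 best without support, the 3 best of each replicate absent from the combined list, the 3 widest, the 3 bins with most and the 3 full bins with fewest peaks, the 6 largest stretches and the 3 longest gaps. Tips, 500 kb bins, 200 kb windows and the grouping of the left bins were chosen after their values were seen. Alternatives were other overlaps, arm borders, bins, gaps, filters on q and width, and each replicate alone.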

Additional observations from a re-analysis of the deposited data

How the results depend on the processing

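The left deficit of the arms and its difference from the pooled other autosomes kept their direction in every alternative run. The right share of arm peaks ranged from 60.1% to 73.0% in filtered, merged or differently divided combined lists, and the single replicates gave 69.4% and 80.4%. Its difference from other autosomes was not past the threshold in the weaker 50% of the combined list, an alternative added after seeing the data (60.1% against 56.6%, p = 0.411, Fisher's exact test). Its range over all alternatives was p of 8.27e-13 to 0.411. The central share of 57.5% was 53.6% and 57.0% in the single replicates, the first not past the threshold (p = 0.505, exact binomial test). The central share against other autosomes was not past the threshold in any alternative and changed sign in replicate 2 (53.6%), in the better 50% of the whole list by q (55.9%) and with the chromosome divided into 3 equal parts (36.4%).

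The number of bins called was 6 and became 3 with peaks within 2000 bp merged, 0 in the weaker 50% (exact binomial test, with 3 at an unadjusted p under 0.05), and 1 to 7 in the single replicates. Among peaks of at least 100 bp the bin from 0 to 1 Mb was lost. With merging, the bins from 1 to 2, 3 to 4 and 11 to 12 Mb were called. Adjusted over the bins of all chromosomes, added after seeing the data, 5 were called, and 10 to 11 Mb was lost. Support in both replicates changed sign against other chromosomes in the better 50% by q (16.8% on chromosome II) and, at 8.99%, against other autosomes with or without chromosome I. Support in neither changed sign in the better 50% (18.2%) and, at 40.4%, against autosomes without chromosome I. Among peaks of at least 100 bp it passed the threshold (25.3% against 29.6%, p = 0.0378, Fisher's exact test, unadjusted, with a range of 0.0378 to 0.744 over the alternatives). Counted against 1 replicate alone it was 89.2% and 42.2%.

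Dense stretches depended on their definition. The number of 57 became 32 with gaps of at most 1000 bp, 99 with 5000 bp, 23 with at least 4 peaks, 21 in the better 50%, 29 among peaks of at least 100 bp, and 2 to 21 in the single replicates. The median width was 226 bp in the better 50% and 163 to 283 bp in the replicates. The median gap was 12786 bp in the better 50% and 10856 to 76180 bp in the replicates. The largest stretch of 11 peaks became 6 with gaps of at most 1000 bp, 19 with 5000 bp, 7 in the better 50%, and 5 and 3 in replicates 1 and 2. Lists with fewer peaks have longer gaps and fewer stretches by construction. No paired analysis was possible because the inputs, which carry the same replicate numbers, have no processed file here.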
